A study of Mus musculus with 17 samples.

Results

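The 10 genes described here encode the myosin heavy and light chains of the skeletal muscle sarcomere: the fast heavy chains Myh1, Myh2 and Myh4, the slow heavy chain Myh7, the developmental heavy chains Myh3 and Myh8, the fast light chains Myl1 and Mylpf, and the slow light chains Myl2 and Myl3. They were chosen by gene symbol as the fast, slow and developmental sarcomeric myosins, and each of the 10 symbols was found among the 45777 genes of the count table. All 10 passed the filter on low counts. Poly(A) RNA was sequenced from the gastrocnemius, the large calf muscle, of 17 male C57BL/6J mice. The ALL mice (n = 4) were kept between the ages of 48 and 61 weeks and received an AIN-93G diet in which 3% allulose, an epimer of fructose, replaced cellulose for 12 weeks. The Middle-aged mice (n = 6) had the same ages, the Mature mice (n = 7) were followed between 8 and 21 weeks of age, and both received AIN-93G without allulose. The sample labels give the ages as 12 months and 8 weeks. The muscle was sequenced as bulk tissue, so that a smaller number of fibres of a type and less RNA per fibre cannot be told apart.

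A myosin motor is built from a pair of heavy chains, each of which carries an essential and a regulatory light chain. Muscle fibres differ in the heavy chain they make. Slow (type I) fibres use Myh7, fast oxidative (type IIA) fibres use Myh2, IIX fibres use Myh1 and the fastest, glycolytic IIB fibres use Myh4. Embryonic (Myh3) and perinatal (Myh8) heavy chains dominate developing and regenerating muscle and are largely replaced after birth. Myl1 and Mylpf are the essential and regulatory light chains of fast fibres, and Myl3 and Myl2 are their counterparts in slow fibres and in the ventricle of the heart. The mouse gastrocnemius is mostly a fast muscle, with slow fibres gathered in its deep part.

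The fast and developmental heavy chain genes lie side by side on chromosome 11, in the order Myh3, Myh2, Myh1, Myh4, Myh8 and then Myh13, the heavy chain of eye and laryngeal muscles (RefSeq, GRCm38.p6). Myh2 (67171027 to 67197517) and Myh1 (67200102 to 67224577) were separated by 2.6 kb. The gaps were 68.7 kb between Myh3 and Myh2, 13.2 kb between Myh1 and Myh4, 16.7 kb between Myh4 and Myh8 and 18.5 kb between Myh8 and Myh13. Myh7 (54970684 to 54994626) lies on chromosome 14 next to Myh6, the alpha heavy chain of the heart. The light chain genes are scattered: Myl1 on chromosome 1, Myl2 on chromosome 5, Mylpf on chromosome 7 and Myl3 on chromosome 9.

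In the RefSeq promoter windows, which reach from 250 bases before to 50 bases after each start, Myh1, Myh2, Myh4 and Myh8 shared words of 14 and 9 bases. These stretches are shown because they are what the promoters of these 4 neighbouring heavy chain genes have in common. The capitals mark the shared words TCAAATTAT and TTCTAATTATATCC, and all 4 stretches are on the + strand of GRCm38.p6.
Myh2, chr11:67170844-67170925: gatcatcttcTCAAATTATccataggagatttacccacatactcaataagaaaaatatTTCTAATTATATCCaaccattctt
Myh1, chr11:67199876-67199965: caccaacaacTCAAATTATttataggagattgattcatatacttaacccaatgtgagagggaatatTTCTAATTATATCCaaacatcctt
Myh4, chr11:67237615-67237677: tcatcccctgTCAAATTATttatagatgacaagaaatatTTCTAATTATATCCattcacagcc
Myh8, chr11:67277010-67277093: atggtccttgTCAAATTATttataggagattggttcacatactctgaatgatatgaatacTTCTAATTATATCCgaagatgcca

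The longer word was present on either strand in 4 of 32851 promoter windows (0.0122%), those of the 4 genes shown. The shorter one was present in 59 windows (0.1796%). Both were found by searching for what the 4 windows share, so these counts are a description. Among named motifs, also searched on both strands, the MEF2 consensus was present in Myh1, Myh4 and Myh8 and in 3.19% of all windows, and in each of these 3 genes its match overlapped the word TCAAATTAT by 4 bases. The E-box CANNTG was present in 8 of the 10 members and 72.31% of all windows, and the MCAT element CATTCC in 4 members and 14.66% of all windows. The word TATAAA, searched on the strand of the gene only, was present in 4 members (Myh1, Myh2, Myh4 and Myh3) and 8.32% of all windows. The CArG consensus was present in Myh4 and Myl3, and in 1.63% of all windows.

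Libraries held 49774656 to 72640511 counts, and the 10 genes took 6.07% to 8.20% of them. In their whole expression profile 6 libraries stood apart: Mature replicates 1, 2 and 3 and Middle-aged replicates 1, 3 and 4. Mitochondrial genes took 21.1% to 23.5% of counts in these Middle-aged libraries and 20.2% to 22.4% in these Mature libraries, against 15.2% to 17.7% and 15.6% to 17.9% in the remaining Middle-aged and Mature libraries. In the ALL libraries the share was 16.7% to 21.8%. The labels give no batch that matches this split. Libraries of a group were compared by mean chi-square per gene, which is larger for unlike pairs. Pairs within the 6 were at 23.8 to 35.6 among Middle-aged and 18.8 to 24.6 among Mature mice. Pairs with 1 of the 6 were at 72.1 to 218 and 53.4 to 124. Pairs with none were at 40.5 to 91.6 and 32.7 to 59.5, so these ranges overlapped. ALL pairs were at 24.6 to 94.2, and every ALL mouse was kept with the remaining libraries. The labelled tissue was checked by its markers: Acta1, Ckm, Des and Tnnt3 summed to 53325 to 72677 CPM (counts scaled to library size), and the adipocyte markers Adipoq, Plin1 and Cidec to 0.930 to 35.0 CPM, over all libraries. The paper states paired-end reads of 75 bases, and a read may be placed through the other read of its pair. Pairs were not examined here. Taken alone, sequences of 75 bases that 2 heavy chain transcripts hold in common cannot be assigned to either of them. Such sequences made up 16.6% of the Myh1 transcript, 16.3% of Myh2, 15.3% of Myh7 (all shared with Myh6), 12.9% of Myh8, 9.68% of Myh4 and 1.86% of Myh3, so the counts of these paralogs are uncertain to an extent set by how shared reads were counted.

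Per length, the fast light chains and the fast heavy chain Myh4 were far above the other members. In TPM, the length-corrected unit of the authors, the means over the 17 mice were 18178 for Myl1, 17698 for Mylpf, 14061 for Myh4, 932 for Myh1, 475 for Myh2, 251 for Myl2, 241 for Myl3, 171 for Myh8, 39.9 for Myh7 and 2.54 for Myh3. Ranges over mice overlapped between every pair of neighbours in this order except Myh4 and Myh1. Myl1 was above Mylpf in 12 of 17 mice and Myl2 above Myl3 in 6 of 17, so that neither pair had a fixed order. Mylpf was above Myh4 within each of the 17 mice, although their ranges over mice overlapped.

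The spread between mice was smallest for fast light chains and largest for slow genes. Between the lowest and the highest of the 17 mice, the CPM differed by 1.37-fold for Mylpf, 1.52-fold for Myl1, 1.55-fold for Myh4 and 1.56-fold for Myh8. It differed by 2.61-fold for Myh1, 4.04-fold for Myh2 and 5.56-fold for Myh3. The slow genes varied most, by 20.7-fold for Myl2, 21.9-fold for Myl3 and 255-fold for Myh7, whose counts ran between 203 and 47084.

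**Figure D1:**
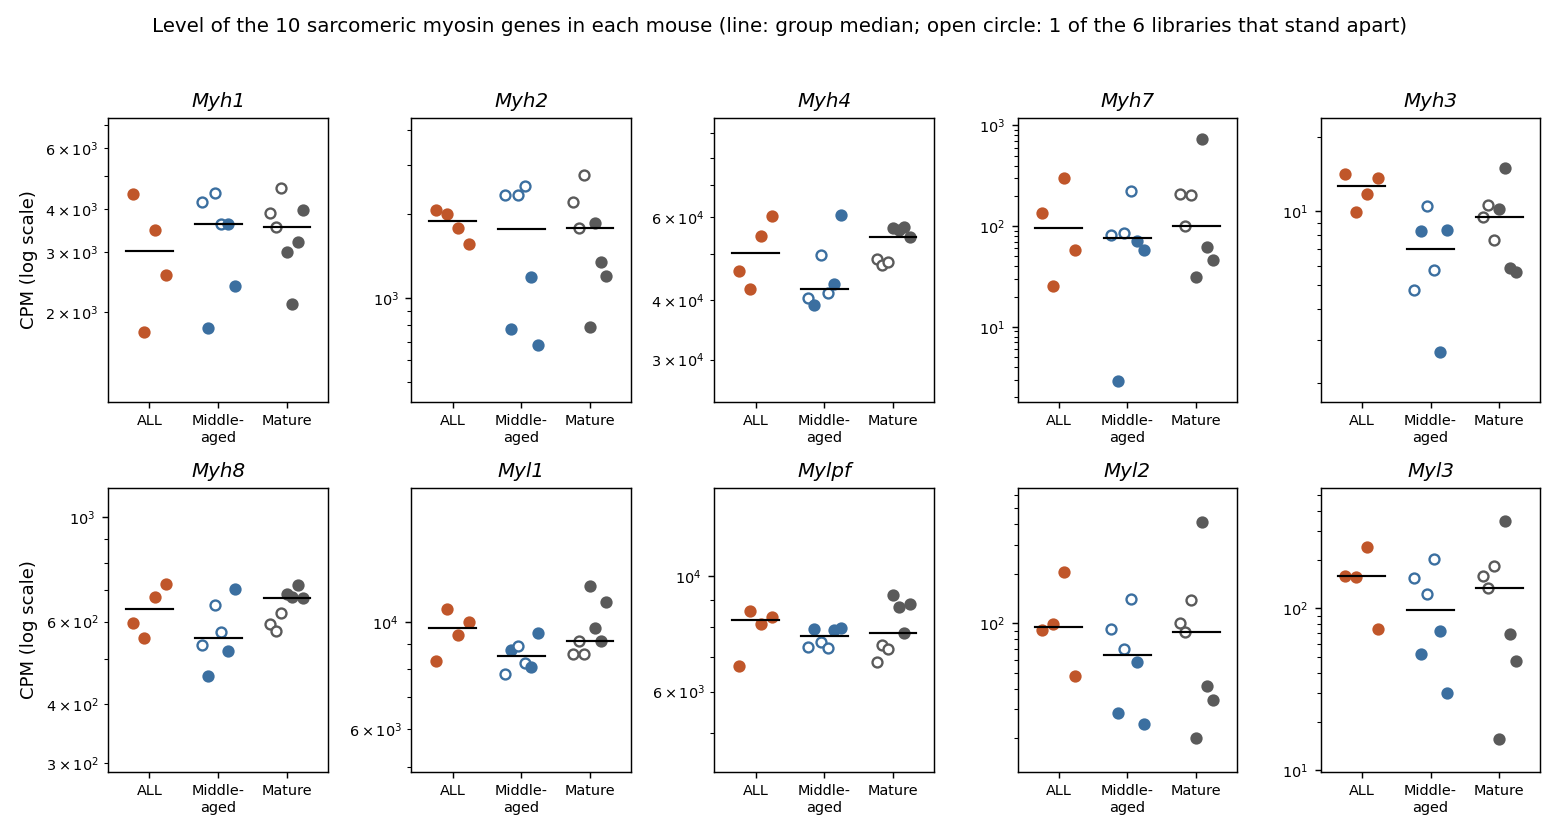
Level of each of the 10 genes in every mouse, in CPM on a log axis that differs between panels; each point is 1 mouse, black lines are group medians and open circles are the 6 libraries that stood apart. Groups overlapped for every gene, and Myh7 spanned 2.89 to 737 CPM.

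Myh4, the IIB heavy chain and the main heavy chain of this muscle, was at 46097, 42173, 54617 and 60332 CPM in the ALL mice. It was at 39133 to 60511 CPM (median 42347) in Middle-aged mice and at 47478 to 57203 CPM (median 54503) in Mature mice. All 3 groups overlapped, with 4 of the 6 Middle-aged mice below every Mature mouse. The log2 fold change (logFC) was -0.21 (SE 0.11, 95% interval -0.45 to 0.03, adjusted p = 0.28 in edgeR) for Middle-aged against Mature, and 0.15 (SE 0.13, -0.12 to 0.43) for ALL against Middle-aged. Myh4 took 89.8% ± 2.53 of the counts of the 6 heavy chain members in ALL, 88.9% ± 3.80 in Middle-aged and 89.6% ± 2.49 in Mature mice (SD, n = 4, 6 and 7). The heavy chain transcripts have nearly the same length (6016 to 6230 bases), and the shares per TPM were 89.9%, 88.9% and 89.7%.

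Myh1, the IIX heavy chain, was at 4414, 1759, 3475 and 2561 CPM in the ALL mice. The range was 1802 to 4465 CPM (median 3618) in Middle-aged and 2112 to 4591 CPM (median 3554) in Mature mice. ALL replicate 2, Middle-aged replicate 2 and Mature replicate 5 were the lowest of their groups, and the ranges of the 3 groups overlapped. The logFC was -0.13 (SE 0.26, -0.68 to 0.41) for ALL against Middle-aged and -0.05 (SE 0.22, -0.52 to 0.42) for Middle-aged against Mature. Its share of the 6 heavy chains was 5.42% ± 2.09 in ALL, 6.59% ± 2.08 in Middle-aged and 5.96% ± 1.57 in Mature mice (SD).

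Myh2, the IIA heavy chain, was at 2075, 1997, 1778 and 1562 CPM in the ALL mice. It was at 682 to 2524 CPM (median 1764) in Middle-aged and at 788 to 2757 CPM (median 1782) in Mature mice. The ALL mice lay inside both ranges. The logFC was 0.17 (SE 0.35, -0.57 to 0.91) for ALL against Middle-aged and -0.06 (SE 0.31, -0.70 to 0.59) for Middle-aged against Mature. Like several other members, Myh2 differed in level between the libraries that stood apart and the rest. Among Middle-aged mice, Myh2 was at 2335 to 2524 CPM in the 3 libraries that stood apart and at 682 to 1194 CPM in the other 3, and among Mature mice at 1782 to 2757 CPM in 3 and 788 to 1866 CPM in 4. Without these 6 libraries the logFC of Myh2 was 1.07 for ALL against Middle-aged (adjusted p = 0.435). Leaving them out kept every ALL mouse, so this value sets all ALL mice against only the 3 Middle-aged libraries with lower Myh2. For Middle-aged against Mature it was -0.56 (adjusted p = 0.27) without the 6 and 0.08 (adjusted p = 0.762) within the 6 alone. The mitochondrial share was higher in the 6 than in the remaining Mature and Middle-aged libraries. It correlated with Myh2 at r = -0.54 within the 6 libraries and 0.44 within the other 11, and its part in the level of Myh2 was not tested. No pooled value is given because the Mature and Middle-aged libraries fall into separate sets by that share. The ALL libraries do not, and the other 11 include ALL replicate 1 at 21.8% and ALL replicate 2 at 18.5%. Of the other members, Mylpf was lower in the libraries that stood apart in both groups without overlap, at 7267 to 7476 CPM against 7881 to 7932 CPM among Middle-aged and at 6851 to 7368 CPM against 7766 to 9218 CPM among Mature mice. Myh7, Myl2 and Myl3 were higher in them without overlap among Middle-aged mice, and Myh4, Myh8 and Myl1 were lower in them without overlap among Mature mice. These sets were formed from the data, and the differences between them were not tested.

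**Figure D2:**
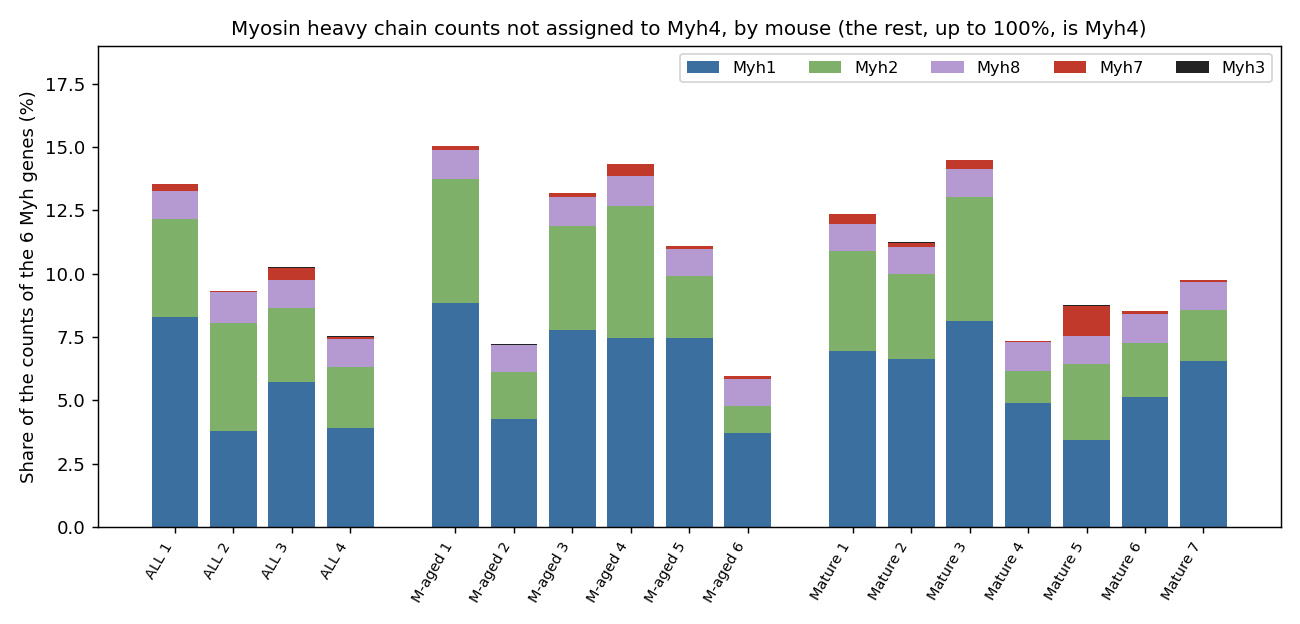
Share of the counts of the 6 heavy chain genes taken by each gene other than Myh4, in percent, with 1 stacked bar per mouse and the remainder being Myh4. Myh1 and Myh2 made up most of each bar, Myh8 kept nearly the same height and the Myh7 segment was widest in Mature replicate 5.

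Myh7, the slow heavy chain, was at 134, 25.5, 303 and 58.4 CPM in the ALL mice. It was at 2.89 to 221 CPM (median 76.1) in Middle-aged and at 31.5 to 737 CPM (median 100) in Mature mice. Single mice set both ends: Middle-aged replicate 2 was at 2.89 CPM and Mature replicate 5 at 737 CPM, and the other 15 mice overlapped between groups. The logFC was 0.59 (SE 0.87, -1.24 to 2.42) for ALL against Middle-aged and -1.19 (SE 0.78, -2.82 to 0.44, adjusted p = 0.37) for Middle-aged against Mature. Without Mature replicate 5 the value for Middle-aged against Mature was -0.32, without Middle-aged replicate 2 it was -0.95, and without both, a choice made after seeing the data, it was -0.07. Without the 6 libraries that stood apart it was -2.33 (adjusted p = 0.374), and within them alone -0.41. Without ALL replicate 3 the value for ALL against Middle-aged was -0.25. It was 1.56 without the 6 libraries that stood apart, none of them from an ALL mouse. Myh7 took 0.224% ± 0.202 of the heavy chain counts in ALL, 0.170% ± 0.153 in Middle-aged and 0.334% ± 0.400 in Mature mice (SD).

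Myl2, the slow regulatory light chain, was at 90.8, 98.8, 206 and 47.6 CPM in the ALL mice. Middle-aged mice had 24.3 to 140 CPM (median 64.2) and Mature mice 20.0 to 414 CPM (median 89.0). As for Myh7, Mature replicate 5 was the highest mouse and the groups overlapped. The logFC was 0.68 (SE 0.66, -0.70 to 2.07) for ALL against Middle-aged and -0.79 (SE 0.58, -2.02 to 0.43) for Middle-aged against Mature, and without Mature replicate 5 the value for Middle-aged against Mature was -0.03. Without the 6 libraries that stood apart, the values of Myl2 were 1.58 for ALL against Middle-aged (adjusted p = 0.747) and -1.79 for Middle-aged against Mature (adjusted p = 0.345). None of these 6 libraries is from an ALL mouse. Myl3, the slow essential light chain, was at 159, 156, 241 and 74.1 CPM in the ALL mice, at 30.2 to 202 CPM (median 97.6) in Middle-aged and at 15.7 to 344 CPM (median 133) in Mature mice. Its lowest mouse was Mature replicate 4 and its highest Mature replicate 5, so that the Mature range enclosed both other groups. The logFC of Myl3 was 0.58 (SE 0.60, -0.69 to 1.84) for ALL against Middle-aged and -0.36 (SE 0.53, -1.47 to 0.74) for Middle-aged against Mature, where the value was 0.06 without Mature replicate 5. Without the 6 libraries that stood apart, the values of Myl3 were 1.61 (adjusted p = 0.686) and -1.22 (adjusted p = 0.466) in the same 2 comparisons. By TPM, Myl2 was 1.56% ± 0.911 of Myl2 and Mylpf in ALL, 1.02% ± 0.673 in Middle-aged and 1.64% ± 1.67 in Mature mice. Myl3 was 1.57% ± 0.707 of Myl1 and Myl3 in ALL, 1.19% ± 0.767 in Middle-aged and 1.38% ± 1.09 in Mature mice (SD).

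Myh8, the perinatal heavy chain, was at 597, 553, 677 and 720 CPM in the ALL mice. It was at 460 to 702 CPM (median 553) in Middle-aged and at 572 to 718 CPM (median 675) in Mature mice, and the groups overlapped. The logFC was 0.15 (SE 0.11, -0.07 to 0.38) for ALL against Middle-aged and -0.18 (SE 0.09, -0.38 to 0.01, adjusted p = 0.24) for Middle-aged against Mature. In each of the 17 mice the Myh8 count was 1.16% to 1.38% of the Myh4 count. Of the Myh8 transcript, 4.28% consists of 75-base sequences that are also in Myh4, and the part of shared reads in this ratio was not tested.

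Myh3, the embryonic heavy chain, was the least abundant member and the one with the smallest unadjusted p for ALL against Middle-aged. It was at 14.2, 9.90, 11.8 and 13.6 CPM in the ALL mice, against 2.69 to 10.5 CPM (median 7.06) in Middle-aged mice. Of the 4 ALL mice, 3 were above every Middle-aged mouse, and ALL replicate 2 was below Middle-aged replicate 3. The logFC was 0.88 (SE 0.29, 0.26 to 1.49), with an unadjusted p of 0.0075 and an adjusted p of 0.9997 in edgeR, so the difference did not pass the test over all genes. The unadjusted p ran between 0.0021 and 0.029 over 26 other settings, among them each mouse left out in turn. Mature mice had 5.64 to 15.0 CPM (median 9.52), a range that held all 4 ALL and 4 of the 6 Middle-aged mice. The logFC was -0.45 (SE 0.26, -0.99 to 0.09) for Middle-aged against Mature and 0.43 (SE 0.28, -0.17 to 1.02) for ALL against Mature.

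Myl1, the fast essential light chain, was at 8308, 10674, 9417 and 10036 CPM in the ALL mice. It was at 7820 to 9482 CPM (median 8499) in Middle-aged and at 8596 to 11880 CPM (median 9159) in Mature mice. The logFC was 0.17 (SE 0.10, -0.05 to 0.38) for ALL against Middle-aged and -0.19 (SE 0.09, -0.37 to 0.00, adjusted p = 0.21) for Middle-aged against Mature. Mylpf, the fast regulatory light chain, was the steadiest member. It was at 6729, 8568, 8080 and 8358 CPM in the ALL mice, at 7267 to 7932 CPM (median 7678) in Middle-aged and at 6851 to 9218 CPM (median 7766) in Mature mice. Both light chains overlapped between all groups, and the logFC of Mylpf was 0.06 (SE 0.10, -0.14 to 0.26) for ALL against Middle-aged and -0.07 (SE 0.08, -0.24 to 0.10) for Middle-aged against Mature.

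Across the 10 genes, the question of whether age or allulose went with a different myosin content was put to the edgeR fit over all genes. For ALL against Middle-aged, 0 of the 10 members and 0 of 16731 genes tested passed an FDR of 0.05 (0.0%). At an unadjusted p under 0.05 there were 1 member (Myh3) and 603 genes (3.6%), and DESeq2 called 0 members and 2 genes. For ALL against Mature, 0 members passed, beside 6.5% of genes tested, and 0 members had an unadjusted p under 0.05 beside 22.7% of genes. DESeq2 called 0 members there. For Middle-aged against Mature, 0 members passed, beside 10.3% of genes tested. At an unadjusted p under 0.05 there were 0 members in edgeR, beside 24.3% of genes, and 2 in DESeq2, which called 0 after adjustment. Members had a median logFC of 0.17 for ALL against Middle-aged, -0.02 for ALL against Mature and -0.20 for Middle-aged against Mature, beside medians of -0.005, -0.007 and 0.01 over all genes. For ALL against Mature the members' logFC ran between -0.61 for Myh7 (SE 0.87, -2.44 to 1.23) and 0.43 for Myh3, with the other 8 between -0.19 (Myh1) and 0.22 (Myl3). The 3 comparisons share mice. The 95% intervals show what these group sizes could resolve. For Middle-aged against Mature they reached no further than 0.45 on the log2 scale from 0 for Myh4, Myl1, Mylpf and Myh8, but as far as 2.82 for Myh7.

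**Figure D3:**
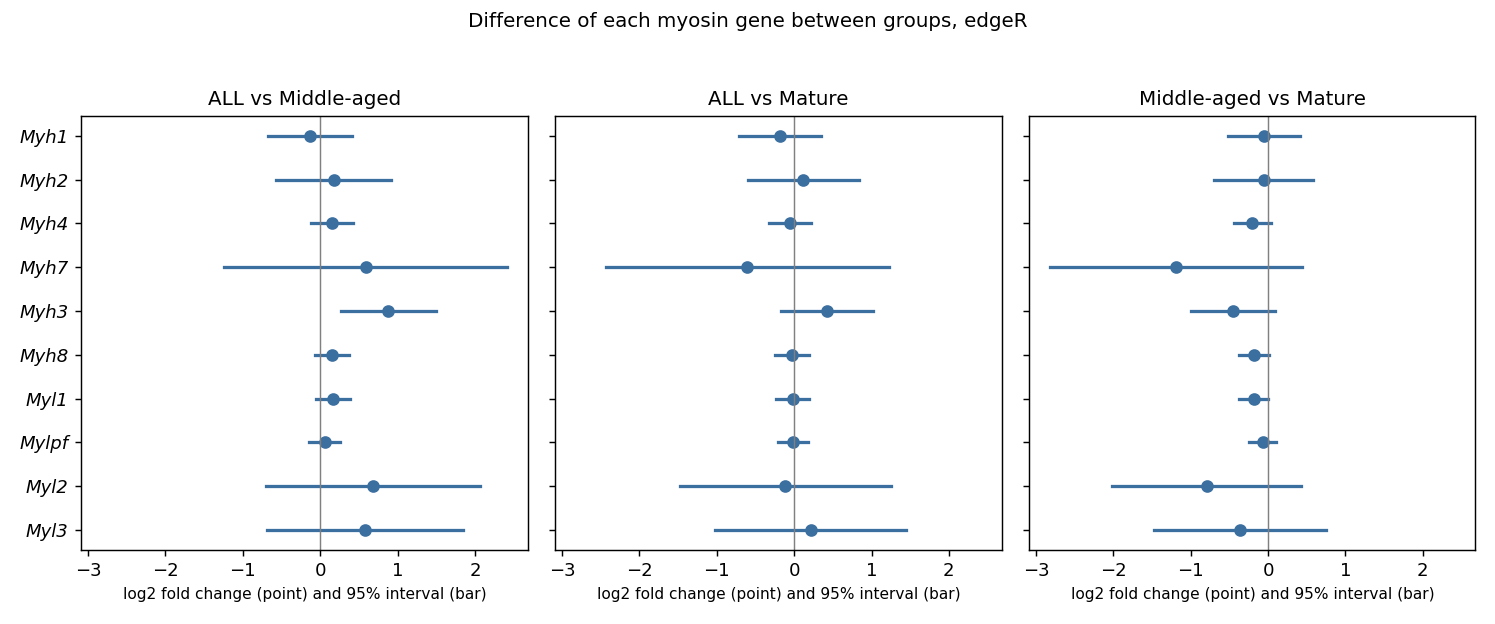
Log2 fold change (points) and 95% interval (bars) of the 10 genes in the 3 comparisons, from the edgeR fit over all genes. Intervals crossed 0 in every case but Myh3 for ALL against Middle-aged, and were widest for Myh7, Myl2 and Myl3.

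Slow genes varied together from mouse to mouse within groups. Over 12 pairs of measures, correlations were computed on log2 CPM deviations from the group mean in 17 mice, with permutation p-values adjusted over the 12. Myl2 and Myl3 were correlated at r = 0.96 (raw permutation p = 1e-05, the smallest that 100000 permutations can give, adjusted p = 4e-05, rho = 0.98 with adjusted p = 6e-05), Myh7 and Myl2 at r = 0.78 (raw p = 0.00021, adjusted p = 0.0005, rho = 0.85 with adjusted p = 0.00032) and Myh7 and Myl3 at r = 0.70 (raw p = 0.0016, adjusted p = 0.0028, rho = 0.85 with adjusted p = 0.00024). Without the 2 mice farthest from the median on the x axis these were 0.97, 0.79 and 0.73. Within the 6 libraries that stood apart they were 0.99, 0.83 and 0.87, and within the other 11 they were 0.95, 0.72 and 0.60. Myh7 was also correlated with the IIA heavy chain Myh2 (r = 0.63, raw p = 0.006, adjusted p = 0.009, rho = 0.73 with adjusted p = 0.0014), at 0.59 without the 2 farthest mice, 0.65 within the 6 and 0.54 within the 11.

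Fast genes formed other pairs. Myl1 and Mylpf had r = 0.88 (raw permutation p = 3e-05, adjusted p = 9e-05, rho = 0.91 with adjusted p = 0.00018), at 0.80 without the 2 farthest mice, 0.58 within the 6 libraries and 0.84 within the 11. Myh4 and Myh8, a pair added after seeing the data, had r = 0.93 (raw p = 1e-05, adjusted p = 4e-05, rho = 0.92 with adjusted p = 0.00018), at 0.93 without the 2 farthest mice, 0.91 within the 6 and 0.99 within the 11. Myh2 and Myh1 had r = 0.55 (raw p = 0.028, adjusted p = 0.037, rho = 0.54 with adjusted p = 0.043), but 0.23 without Middle-aged replicates 2 and 6, 0.62 within the 6 and 0.06 within the 11. That relation did not hold without those 2 mice or within the 11 libraries. No correlation passed for Myh1 and Myh4 (r = -0.09, rho = 0.04, adjusted p = 0.76), Myh2 and Myh4 (r = -0.45, rho = -0.32, adjusted p = 0.12) or the developmental pair Myh3 and Myh8 (r = 0.22, rho = 0.26, adjusted p = 0.55). For Myh1 and Myh4, r was -0.71 without ALL replicate 2 and Middle-aged replicate 2.

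**Figure D4:**
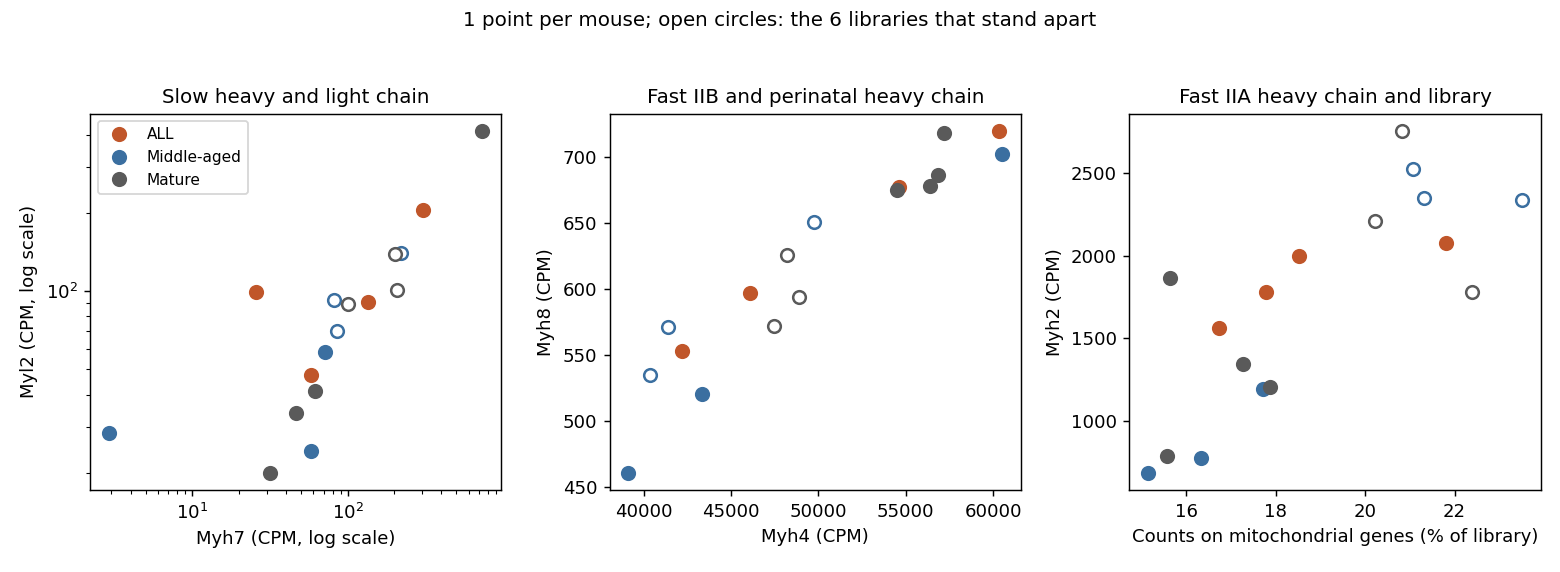
Each point is 1 mouse: Myh7 against Myl2 (CPM, log axes), Myh4 against Myh8 (CPM) and the mitochondrial share of the library in percent against Myh2 (CPM), with open circles for the 6 libraries that stood apart. Myh7 and Myl2 went together over most mice, and Middle-aged replicate 2 and ALL replicate 2 had the lowest Myh7.

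In Mature replicate 5, Myh7 was 9.09 times, Myl2 6.35 times and Myl3 3.39 times the median of the other Mature mice, while Myh1 was 0.568 times it. Slow thin filament genes were high in the same mouse, with Tnnc1 (slow troponin C) at 10.3 times, Tnni1 (slow troponin I) at 9.98 times and Tnnt1 (slow troponin T) at 9.02 times that median. Tpm3, the slow tropomyosin, was at 5.30 times and Atp2a2, the calcium pump of slow fibres and heart, at 4.01 times. Of the 10 slow partners 1 was below that median, Mybpc1, a myosin-binding protein, at 0.715 times. The 10 fast fibre partners were at 1.09 to 1.27 times it. Middle-aged replicate 2 was low in slow genes. Myh7 was 0.0356 times, Myl2 0.408 times and Myl3 0.425 times the median of the other Middle-aged mice. The fast IIA heavy chain Myh2 was also low, at 0.331 times that median. Myh1 was at 0.497 times it, and so was low in both of these mice. Tnnt1 was at 0.170 times and Tnnc1 at 0.215 times, and the fast partners at 0.898 to 1.10 times. The ratio of slow heavy to light chain was not the same in every mouse. Without correction for length, the Myh7 count was 10.1% of the Myl2 count in Middle-aged replicate 2, 25.8% in ALL replicate 2 and 87.4% to 238% in the other 15 mice. ALL replicate 2 had Myh7 at 0.190 times and Myl2 at 1.09 times the median of the other ALL mice. These mice were picked for their values, so the ratios are a description.

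**Figure D5:**
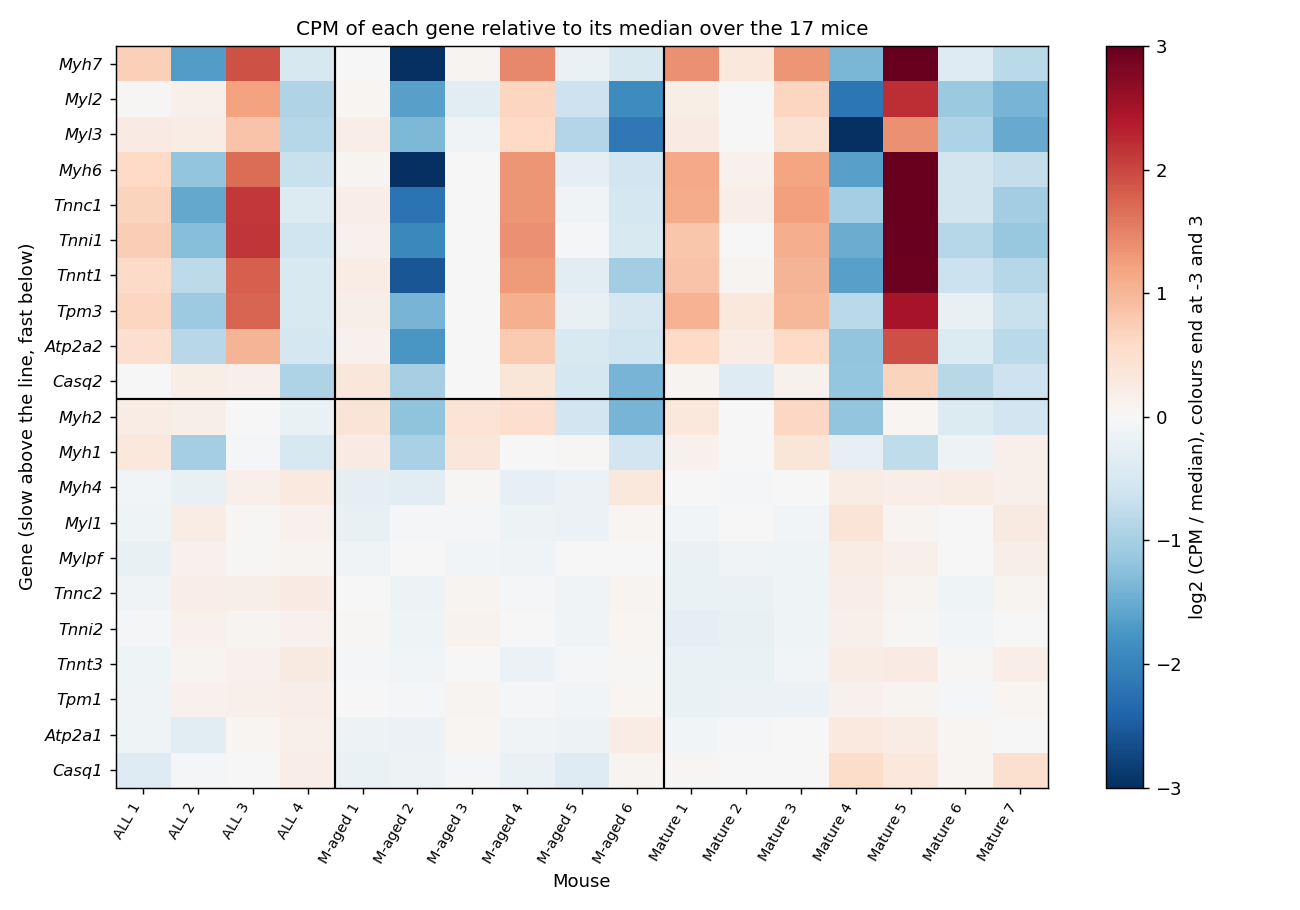
Log2 of the CPM over the median of the 17 mice for slow genes (above the horizontal line) and fast genes (below it), with 1 column per mouse and groups parted by vertical lines; colours end at -3 and 3. Columns of Mature replicate 5 and ALL replicate 3 are high and that of Middle-aged replicate 2 is low over the 10 slow genes drawn, with Casq2 pale in ALL replicate 3, whereas most fast genes are pale throughout.

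Among 12392 genes with logCPM over 0, those closest to Myh7 across the 17 libraries were Myh6 (r = 0.989), Tnnt1 (0.949) and Atp2a2 (0.947). Myh6 was counted at 4.71% to 11.8% of Myh7 (median 5.12%), and 15.5% of its transcript consists of 75-base sequences shared with Myh7, so how much of its count is its own was not tested. Closest to Myh2 were Apol6 (0.979), Homer2 (0.967), a scaffold protein of muscle and synapses, and Idh2 (0.967), the mitochondrial isocitrate dehydrogenase. For Myh1 they were Herc3 (0.899), Patj (0.865) and U2surp (0.846), and for Myh4 Zdhhc3 (0.942), Eif4ebp2 (0.937), a repressor of translation initiation, and Msrb3 (0.924). These are descriptions of 17 libraries of which 6 stood apart.

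Of the other sarcomeric myosins, 6 of 8 were tested and 0 passed in any comparison, and Myh13 was at 9.90 ± 2.31 CPM in ALL, 14.1 ± 4.83 CPM in Middle-aged and 13.6 ± 3.62 CPM in Mature mice (SD). Of 10 slow fibre partners 0 passed in any comparison, with a median logFC of 0.35 for ALL against Middle-aged and -0.45 for Middle-aged against Mature. Tnnc1 had the largest of these, at -1.14 (SE 0.71, adjusted p = 0.35) for Middle-aged against Mature. Of 10 fast fibre partners 1 passed, Casq1, the calcium store protein of fast fibres, which was lower in Middle-aged than in Mature mice (logFC -0.37, SE 0.11, adjusted p = 0.042), a call that held in 13 of 27 other settings. That count, 1 of 10, is near the 10.3% of all genes that passed in this comparison. Of 14 genes of thick filament assembly and light chain kinases 0 passed, among them Trim63, a ubiquitin ligase of muscle wasting (logFC -0.74, SE 0.31, adjusted p = 0.16 for ALL against Mature), and Mybph, a myosin-binding protein (-0.84, SE 0.38, adjusted p = 0.20).

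Of 23 regulators of fibre type, 3 were higher and 1 lower in Middle-aged than in Mature mice, 3 were higher in ALL than in Mature mice and 0 passed between ALL and Middle-aged mice. Over all genes tested, 10.3%, 6.5% and 0.0% passed in these comparisons, so the counts of 4, 3 and 0 of 23 say nothing particular to the list. Mef2c, a transcription factor of muscle genes, averaged 696 ± 66.8 CPM in ALL, 728 ± 83.0 in Middle-aged and 537 ± 26.2 in Mature mice (SD), with a logFC of 0.38 (SE 0.08, adjusted p = 0.010) for ALL and 0.44 (SE 0.07, adjusted p = 0.00072) for Middle-aged against Mature. Nfatc2, a calcineurin-dependent transcription factor, averaged 12.0 ± 0.567 CPM in ALL, 12.5 ± 2.61 in Middle-aged and 7.98 ± 0.877 in Mature mice, with a logFC of 0.59 (SE 0.12, adjusted p = 0.0083) for ALL and 0.65 (SE 0.11, adjusted p = 0.00097) for Middle-aged against Mature. Rcan1, a target and inhibitor of calcineurin, averaged 79.8 ± 17.5 CPM in ALL, 69.9 ± 10.6 in Middle-aged and 49.99 ± 9.50 in Mature mice, and passed against Mature in both (logFC 0.67 and 0.48, adjusted p = 0.010 and 0.024). Prox1, a homeobox factor required for slow gene expression in mouse muscle and also made by lymphatic endothelium and satellite cells, averaged 1.17 ± 0.576 CPM in ALL, 0.847 ± 0.241 in Middle-aged and 2.14 ± 0.684 in Mature mice. Its logFC was -1.35 (SE 0.27, adjusted p = 0.0029) for Middle-aged against Mature, and it passed under all 27 other settings. Without the 6 libraries that stood apart, the adjusted p for Middle-aged against Mature was 0.0587 for Mef2c and 0.403 for Rcan1. It was 0.0146 for Nfatc2. Within the 6 alone it was 0.0113 for Mef2c, 0.00801 for Rcan1 and 0.0874 for Nfatc2.

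Genes of regeneration and denervation, in which embryonic and perinatal myosin are commonly read, were tested for 9 of 10. Myod1, the myogenic factor, passed and averaged 12.6 ± 0.831 CPM in ALL, 11.1 ± 0.579 in Middle-aged and 8.61 ± 1.72 in Mature mice, with a logFC of 0.55 (SE 0.12, adjusted p = 0.0092) for ALL and 0.37 (SE 0.11, adjusted p = 0.029) for Middle-aged against Mature. Its call for Middle-aged against Mature held in 17 of 27 other settings. Chrna1, the acetylcholine receptor subunit that denervated fibres make, had a logFC of -0.29 (SE 0.10, adjusted p = 0.059) for Middle-aged against Mature, and Runx1 one of 0.30 (SE 0.16, adjusted p = 0.27).

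Myosins of other cells included genes that passed. Of 9 smooth muscle and non-muscle myosin genes, 3 fell in Middle-aged mice relative to Mature mice, beside 10.3% of all genes called in either direction. For ALL against Mature 2 of the 9 were lower, beside 6.5% of all genes called. Myh11, the smooth muscle heavy chain, averaged 15.6 ± 1.10 CPM in ALL, 14.9 ± 1.88 in Middle-aged and 21.0 ± 2.79 in Mature mice, and Mylk, the smooth muscle light chain kinase, 12.8 ± 0.914 CPM in ALL, 11.7 ± 0.586 in Middle-aged and 16.1 ± 1.57 in Mature mice. Their logFC for Middle-aged against Mature was -0.49 (SE 0.09, adjusted p = 0.0019) and -0.46 (SE 0.07, adjusted p = 0.00020), and both also passed for ALL against Mature (-0.42 and -0.33, adjusted p = 0.021 and 0.013). Myl9, a smooth muscle light chain, passed for Middle-aged against Mature only (-0.32, SE 0.10, adjusted p = 0.037), and a test between the comparisons was not run. The call for Myl9 held in 14 of 27 other settings. Within the 6 libraries that stood apart, the adjusted p for Middle-aged against Mature was 0.0226 for Myh11, 0.0149 for Mylk and 0.0682 for Myl9. Without the 6 libraries that stood apart, the adjusted p for Middle-aged against Mature was 0.0755 for Myh11 and 0.26 for Myl9 but 0.0241 for Mylk, and for ALL against Mature it was 0.0462 for Myh11 and 0.0715 for Mylk.

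Markers of other cell types passed as well. For Middle-aged against Mature, 3 of 4 endothelial, 4 of 4 Schwann cell, 2 of 4 tendon, 2 of 3 vascular smooth muscle and 2 of 3 satellite cell markers were lower, and 0 of 3 adipocyte, macrophage and red blood cell markers passed. For ALL against Mature, 3 endothelial, 2 vascular smooth muscle and 1 satellite cell marker were lower, 1 tendon marker was lower and 1 higher, and 0 Schwann cell markers passed. Of the calls for Middle-aged against Mature, those of the 3 endothelial and 4 Schwann cell markers and of Pdgfrb held without the 6 libraries that stood apart, and those of Tagln, the tendon markers Kera and Tnmd and the satellite cell markers Calcr and Myf5 did not. Within the 6 alone, the calls of the endothelial markers, Pdgfrb, Tagln, Kera, Tnmd and Myf5 held, and those of the Schwann cell markers and Calcr did not. Endothelial markers summed to 119.9–144 CPM in ALL, 105–151 CPM in Middle-aged and 149–205 CPM in Mature mice. Schwann cell markers summed to 27.9–68.9 CPM in ALL, 17.6–57.8 CPM in Middle-aged and 42.1–243 CPM in Mature mice. Vascular smooth muscle markers, from cells that also make Myh11 and Mylk, summed to 38.1–44.0 CPM in ALL, 32.4–51.2 CPM in Middle-aged and 52.1–65.1 CPM in Mature mice. Tendon markers summed to 7.52–16.7 CPM in ALL, 6.15–21.1 CPM in Middle-aged and 9.72–51.5 CPM in Mature mice. Satellite cell markers summed to 2.54–3.79 CPM in ALL, 2.49–3.51 CPM in Middle-aged and 3.52–4.96 CPM in Mature mice. No marker of these lists was at 0 in all libraries. The part of these cell types in the levels of the regulators and of Myh11, Mylk and Myl9 was not tested. Of the 4 muscle fibre markers, Des, the intermediate filament desmin, was higher in Middle-aged than in Mature mice (logFC 0.26, SE 0.07, adjusted p = 0.022) and in ALL than in Mature mice (0.27, SE 0.08, adjusted p = 0.046). The second call held in 7 of 26 other settings, and without the 6 libraries that stood apart the first was 0.15 (adjusted p = 0.473). Within the 6 alone the first was 0.38 (adjusted p = 0.028). Between ALL and Middle-aged mice 0 markers passed. The lowest p was that of the adipocyte marker Cidec (logFC -2.47, SE 0.85, adjusted p = 1.0), and 0 of the 3 adipocyte markers passed in edgeR, with 3 at an unadjusted p under 0.05.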

How the data were processed

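Messenger RNA libraries (TruSeq Stranded mRNA kit) of gastrocnemius from 17 mice were analysed. The deposited counts are whole numbers for each gene in each library, and no normalization by the authors was found. The authors also deposited TPM values, which were used only to compare levels between genes of different length. The sources differ on the upstream tools: Trimmomatic, STAR and StringTie in the paper, but in the submitters' processing notes HISAT2 2.1.0 and featureCounts on mm10, with Trimmomatic 0.38 and FastQC 0.11.7. Thus the counting program and its treatment of shared reads and strand are not settled. One label names adipose and liver in the extraction, and the labelled tissue, gastrocnemius, was used. Left out were 18 columns of other mice (10 of counts, 8 of TPM) and 17 columns of FPKM.

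Tests used edgeR 4.0.16 under R 4.3.3 (the filterByExpr filter left 16731 genes and removed 29046; TMM; quasi-likelihood F test; Benjamini-Hochberg over all genes tested; FDR under 0.05), with all 17 libraries in 1 fit (common dispersion 0.0332, prior degrees of freedom 4.67). The fit was checked on simulated counts with the same dispersion for every gene and no libraries that stand apart. That check does not cover these features of the data. Standard errors were derived from logFC and F. CPM of single genes uses TMM-scaled library sizes. The summed CPM of marker lists uses unscaled library totals, so sums and single genes are not on the same scale. Mice are separate animals, and the edgeR p-values weigh a group difference against the spread between mice. Alternatives were DESeq2 1.42.0, library size alone, upper quartile, no mitochondrial genes, no filter, only the 2 groups compared, a replicate block, the 6 libraries that stood apart left out or kept alone, and each mouse left out. Chosen after seeing the data were the removal of 2 extreme mice together, 3 added correlations and shares in TPM. Correlations used 100000 permutations within groups (Python 3.11.15, scipy 1.17.1).

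The members, lists, tests and alternatives were chosen with earlier results of these data known. The text names the 10 members, up to 4 genes with the smallest p per list and comparison, and the 3 genes most like Myh7, Myh2, Myh1 and Myh4 with logCPM over 0. Promoter sequences are from RefSeq (GRCm38.p6). All 10 members matched its promoter table, and for Myh7 and Myl2, which have 2 promoters listed, the downstream start was used. Shared 75-base sequences were counted between the longest protein-coding transcripts of GENCODE (GRCm38).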

Additional observations from a re-analysis of the deposited data

Results flagged for a closer look

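In 2 of the 30 groups of CPM values examined (10 genes in 3 groups), 1 mouse lay far from the rest. Myh7 in Mature replicate 5 was at 737.1 CPM, with a gap to the next mouse of 0.749 of the range of the group. Myl2 in the same mouse was at 414.0 CPM, with a gap of 0.699 of the range. Chance marks about 1 in 20 groups in this way. Both genes are slow myosins of 1 mouse and are not independent of each other.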

How the results depend on the processing

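Under every setting run, 0 members were called in the 3 comparisons. The number of all genes called was more than 1.5 times larger or smaller under a few settings. For Middle-aged against Mature it was 1721, 470 without the 6 libraries that stood apart and 1130 within them alone. For ALL against Middle-aged it was 0, 2 in DESeq2 and 1 without the 6 libraries, and 0 to 1 with each mouse left out. For ALL against Mature it was 1087, 1681 in DESeq2, 615 with a replicate block and 430 to 1096 with each mouse left out, with the lowest numbers without ALL replicate 3 (430), ALL replicate 4 (650) and Mature replicate 6 (707). The cause was not tested.

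Same-numbered mice of different groups deviated together little (median r 0.131 over 14 pairs, -0.0205 over 80 others), so the numbers were not taken as pairs. With the replicate block the logFC for ALL against Mature turned to -0.11 for Myh2, 0.02 for Myh4, Myl1 and Myl2, 0.03 for Myh8 and 0.05 for Mylpf, and no member was called.

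Members whose logFC is near 0 changed sign. Within the 6 libraries alone, Middle-aged against Mature gave 0.02 for Myh1 and Mylpf, 0.08 for Myh2 and 0.00 for Myl3. Without the 6, Myh1 was at 0.23 for ALL against Middle-aged. Without Mature replicate 5 and Middle-aged replicate 2 together, Middle-aged against Mature gave 0.11 for Myh2, 0.13 for Myl2 and 0.20 for Myl3, and ALL against Mature gave 0.26 for Myh7, 0.65 for Myl2 and 0.01 for Mylpf. With each mouse left out in turn, ALL against Mature ran over -0.42 to 0.01 for Myh1, -0.01 to 0.27 for Myh2, -0.16 to 0.02 for Myh4, -1.45 to 0.27 for Myh7, -0.10 to 0.03 for Myh8, -0.07 to 0.04 for Myl1, -0.60 to 0.65 for Myl2, -0.06 to 0.64 for Myl3 and -0.05 to 0.06 for Mylpf. ALL against Middle-aged ran over -0.37 to 0.06 for Myh1 and -0.25 to 1.13 for Myh7, and Middle-aged against Mature over -0.16 to 0.07 for Myh1, -0.22 to 0.10 for Myh2 and -0.65 to 0.06 for Myl3. The correlation of Myh1 and Myh4 was 0.45 within the 6 libraries, 0.13 within the other 11 and 0.04 as rho, that of Myh2 and Myh4 was 0.00 within the 6, and that of the mitochondrial share and Myh2 was -0.54 within the 6.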
